A study of Mus musculus with 899 samples.

Results

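Plasma miRNA was compared 3 months after whole thorax irradiation between irradiated C3H mice that had a further plasma sample at month 4 and irradiated C3H mice that had none. The members are the 27 month 3 samples of irradiated mice in the C3H plasma cohort coded G2, 3% of all samples in the series. They were split by whether the same mouse number also had a month 4 sample, which gave 17 mice with a month 4 sample and 10 mice whose month 3 sample was their last monthly one, and the 16 sham irradiated G2 mice sampled at month 3 served as the reference. A missing month 4 sample is not a record of death, and the labels do not say why it is missing. The study reports deaths among irradiated C3H mice over these months and set criteria for early euthanasia. Its methods also set aside hemolysed plasma and libraries dominated by adapter dimers. Which of these applied to each mouse cannot be told apart here.

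The irradiated mice were young adult, gnotobiotic C3H (C3Hf/Sed/Kam) animals of both sexes, the females slightly older than the males, and their thorax received 1 dose of X-rays set to be lethal to most animals within months, with the rest of the body under lead. The sham animals were C3H mice of the same cohort, 8 females and 8 males, and the labels mark them as not irradiated. No group carried a transgene or an induced mutation. Each mouse was bled before irradiation, once in the first week and then monthly, so that every month 3 sample came from an animal already bled several times. The first-week bleed was on day 2 in arm A and on day 5 in arm B. Of 32 irradiated G2 mice, 30 had a month 1 sample, 28 a month 2 sample, 27 a month 3 sample and 17 a month 4 sample, whereas all 16 sham mice had samples at months 3 and 4. The 5 irradiated mice with no month 3 sample are in neither group.

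MiRNA are short RNA that pair through their seed, the bases next to the 5′ end, with messenger RNA and lower its translation or stability. They circulate in plasma inside vesicles and protein complexes, and most of those found there derive from blood cells, platelets and endothelium, with smaller contributions from liver, muscle and other organs. After thoracic irradiation C3H mice are known for pneumonitis, an inflammation of the irradiated lung that sets in over the months covered here. A plasma level is a share of sequenced miRNA, so release from a tissue, loss of the cells that carry a miRNA and a change in all the other miRNA cannot be told apart.

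Mature sequences of the miRNA on which the results turn are given first, because miRNA act through their seeds and because arms of 1 family have to be told apart by sequence. The first 6 are among the 16 miRNA with the smallest p values for the month 4 comparison, and the others are miRNA that differed between irradiated and sham mice, together with the second miR-34 family member. They were read from RefSeq (GRCm38.p6), which held 28 of the 34 miRNA selected for naming, and capitals mark the seed, bases 2 to 8.
miR-142a-5p: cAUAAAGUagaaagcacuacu
miR-15b-5p: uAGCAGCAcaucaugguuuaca
miR-221-3p: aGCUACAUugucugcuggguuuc
miR-26b-5p: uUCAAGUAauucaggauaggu
miR-100-5p: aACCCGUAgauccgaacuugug
miR-217-5p: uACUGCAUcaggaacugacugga
miR-34c-3p: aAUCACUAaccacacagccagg
miR-34b-3p: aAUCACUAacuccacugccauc
miR-24-3p: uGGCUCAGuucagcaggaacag
miR-146b-5p: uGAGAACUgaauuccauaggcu
miR-125a-5p: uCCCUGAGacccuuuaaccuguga
miR-202-5p: uUCCUAUGcauauacuucuuu
miR-202-3p: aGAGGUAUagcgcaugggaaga
miR-1247-5p: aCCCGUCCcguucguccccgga
miR-184-3p: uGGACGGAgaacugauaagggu
miR-34b-3p and miR-34c-3p share 1 seed and lie on chromosome 9, at chr9:51103574-51103595 and chr9:51103044-51103065 on the minus strand, opposite to an intron of Btg4. miR-202-5p (chr7:139957732-139957752) and miR-202-3p (chr7:139957695-139957716) are the 2 arms of 1 hairpin within an exon of the long noncoding RNA Gm2044. miR-15b-5p (chr3:69009775-69009796) lies in an intron of Smc4 and miR-26b-5p (chr1:74394324-74394344) in an intron of Ctdsp1, each on the strand of its host gene.

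Totals ran from 1153214 to 2255515 miRNA reads (median 1857530) in the mice without a month 4 sample, from 761920 to 2757705 (median 1800977) in those with one and from 1274624 to 5341677 (median 2001039) in sham mice. Mean log10 totals of the irradiated groups differed by 0.0411 (two-sided permutation test, p = 0.504). There were 6 females among the 10 mice without a month 4 sample and 8 among the 17 with one (Fisher's exact test, two-sided, p = 0.695), and 4 and 10 of them were of arm A (p = 0.44). Levels are given as log2 CPM, counts scaled to a fixed library total, on which a library with no read of a miRNA stands at 0.23 and 1 unit is a doubling.

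No miRNA passed the threshold for a difference between mice without and with a month 4 sample. Of 483 miRNA tested at month 3, 0 (0%) passed an adjusted p of 0.05 in edgeR's quasi-likelihood test (Benjamini-Hochberg adjusted over all of them), and the smallest adjusted p was 0.704. At an unadjusted p under 0.05 there were 27 miRNA (5.59%), 16 of them higher (3.31%) and 11 lower (2.28%) in the mice without a month 4 sample, and this count ran from 17 (without mouse 2048) to 39 (without mouse 2007) when each mouse was left out in turn. limma-voom and DESeq2 also passed 0. Calls appeared where rarely read miRNA were let in: 36 of 783 passed when the filter on low counts used all 59 groups of the model and 55 of 1403 with no filter. None of those calls was among the 483 miRNA, each was read in at most 5 of the 27 mice, and 15 reads was the highest count of any of them in a mouse. A single miRNA passed when 1 mouse was left out: miR-708-3p without mouse 2007, miR-6948-3p without mouse 2048, miR-19b-1-5p without mouse 2010 and miR-494-3p without mouse 2031.

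For abundant miRNA the data bounded the difference. Of 164 miRNA with a mean of at least 5 log2 CPM over all samples, the largest fitted difference was 0.68 and the lowest -0.69 on the log2 scale, and the median size was 0.157. Their 95% confidence intervals reached a median of 0.42 to either side, and for 147 of them (89.6%) the whole interval lay within a doubling in either direction. The intervals use a spread estimated over all samples of the series, not in the compared mice alone. The other 319 miRNA had intervals reaching a median of 1.32 to either side, and 53 of them had fitted differences beyond a doubling without passing the threshold.

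**Figure D1:**
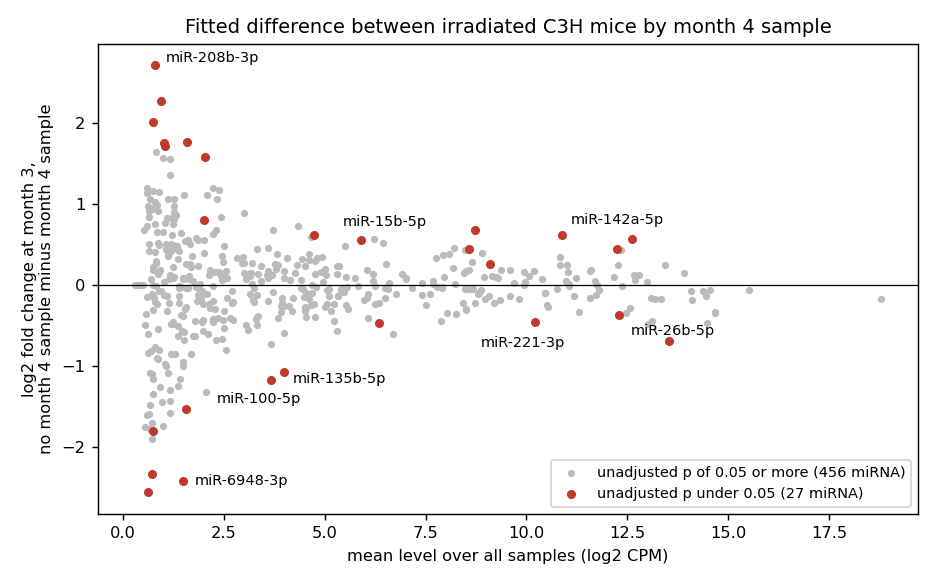
Fitted log2 difference at month 3 between irradiated C3H mice without and with a month 4 sample (vertical axis) against mean level over all samples in log2 CPM (horizontal axis), 1 point for each of 483 miRNA. The 27 red points have an unadjusted p under 0.05; points spread widely below 5 log2 CPM and stay within 0.69 of 0 above it.

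Among abundant miRNA that were higher in mice without a month 4 sample, miR-142a-5p, an arm of the miR-142 hairpin made throughout the blood cell lineages, had the smallest p. In these 10 mice it ran from 10.16 to 12.35 log2 CPM with a median of 11.29, and in the 17 mice with a month 4 sample from 8.85 to 11.35 with a median of 10.76. Sham mice ran from 10.10 to 11.90 with a median of 11.07. The groups overlapped, 8 of the 10 mice were above the median of those with a month 4 sample, and the sham median lay between the medians of the irradiated groups. The difference was 0.63 ± 0.27 (SE) on the log2 scale (p = 0.0195, adjusted p = 0.704). Its value was 0.97 within females and 0.21 within males, and the test of that difference between the sexes gave an unadjusted p of 0.0979. The opposite arm, miR-142a-3p, differed by 0.40 ± 0.30 (p = 0.183).

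miR-15b-5p, which belongs to the cell cycle regulating miR-15/16 family, had a like pattern. It ran from 5.72 to 6.98 log2 CPM (median 6.43) without a month 4 sample, from 4.82 to 6.59 (median 5.97) with one and from 4.95 to 6.44 (median 6.11) in sham mice. The difference was 0.55 ± 0.26 (p = 0.032, adjusted p = 0.704), and 7 of the 10 mice were above the median of those with a month 4 sample.

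miR-221-3p, a miRNA of endothelium and blood cells, and miR-26b-5p, a broadly expressed miRNA, were the abundant miRNA with the smallest p on the lower side. miR-221-3p ran from 9.29 to 10.89 log2 CPM (median 10.30) without a month 4 sample, from 9.90 to 11.64 (median 10.78) with one and from 9.64 to 10.86 (median 10.52) in sham mice. Its difference was -0.45 ± 0.18 (p = 0.0134, adjusted p = 0.704), with 9 of the 10 mice below the median of those with a month 4 sample and the lowest value of all 43 mice among them.

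The 10 mice stood close together in miR-26b-5p. It ran from 11.71 to 12.17 log2 CPM (median 12.03, SD 0.14) in them, from 11.65 to 13.01 (median 12.35, SD 0.43) in mice with a month 4 sample and from 11.79 to 13.39 (median 12.44, SD 0.45) in sham mice. All 10 were below the medians of both other groups, although the ranges overlapped. The difference was -0.37 ± 0.17 (p = 0.0297, adjusted p = 0.704), and it was -0.52 within arm A and 0.05 within arm B.

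Of the moderately abundant miRNA, miR-135b-5p and miR-100-5p were below the median of the mice with a month 4 sample in 10 of 10 mice. miR-135b-5p, known from inflamed and tumor epithelium, ran from 2.17 to 5.15 log2 CPM (median 4.75) without a month 4 sample, from 3.95 to 6.83 (median 5.16) with one and from 3.77 to 6.11 (median 5.26) in sham mice. The difference was -1.07 ± 0.44 (p = 0.0141, adjusted p = 0.704), and the plot of levels shows 3 of the 10 mice well below the rest. miR-100-5p, which targets Mtor and is found in stromal and epithelial cells, ran from 0.23 to 3.38 (median 2.74), from 0.23 to 5.05 (median 3.42) and from 2.26 to 5.52 (median 3.09) in the same order, with a difference of -1.17 ± 0.49 (p = 0.0173, adjusted p = 0.704). Libraries without a read of miR-100-5p occurred in 1 of 10 and 2 of 17 irradiated mice and in 0 of 16 sham mice.

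The widest fitted differences belonged to miRNA with few reads. miR-208b-3p, which lies in an intron of the cardiac myosin gene Myh7 and marks slow and stressed muscle, was read in 5 of 10 mice without a month 4 sample, with at most 11 reads, in 2 of 17 with one and in 3 of 16 sham mice. The fitted difference was 2.71 ± 0.90 (p = 0.00268, adjusted p = 0.704). miR-217-5p, of the acinar pancreas, was read in 4 of 10 mice without a month 4 sample, in 16 of 17 with one and in 12 of 16 sham mice, and its difference was -1.52 ± 0.70 (p = 0.029, adjusted p = 0.704). miR-216b-5p, its neighbor in the same acinar cluster, had no read in any of the 10 mice, but it also had none in 14 of 17 and 12 of 16 of the other mice.

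The remaining miRNA of the 8 with the smallest p in each direction were similarly scarce. On the higher side, miR-19b-1-5p, from the Mir17hg transcript, was read in 5 of 10 and 2 of 17 mice, and miR-494-3p in 4 of 10 and 1 of 17. miR-450a-5p was read in 7 of 10 and 8 of 17 mice, miR-33-5p, which is encoded within Srebf2 and acts on cholesterol export, in 7 of 10 and 5 of 17, and miR-5107-3p in 7 of 10 and 5 of 17. On the lower side, miR-6948-3p was read in 3 of 10 and 11 of 17 mice, and miR-450a-2-3p in 0 of 10 and 3 of 17. Their adjusted p was 0.704 in every case, and none had a median above 5 reads in either irradiated group. For miR-33-5p the mean was 1.53 log2 CPM without a month 4 sample, 0.63 with one and 1.28 in sham mice. The sham mean also lay between the irradiated groups for miR-450a-5p, miR-19b-1-5p, miR-494-3p and miR-6948-3p. It was below both for miR-5107-3p and above both for miR-450a-2-3p.

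**Figure D2:**
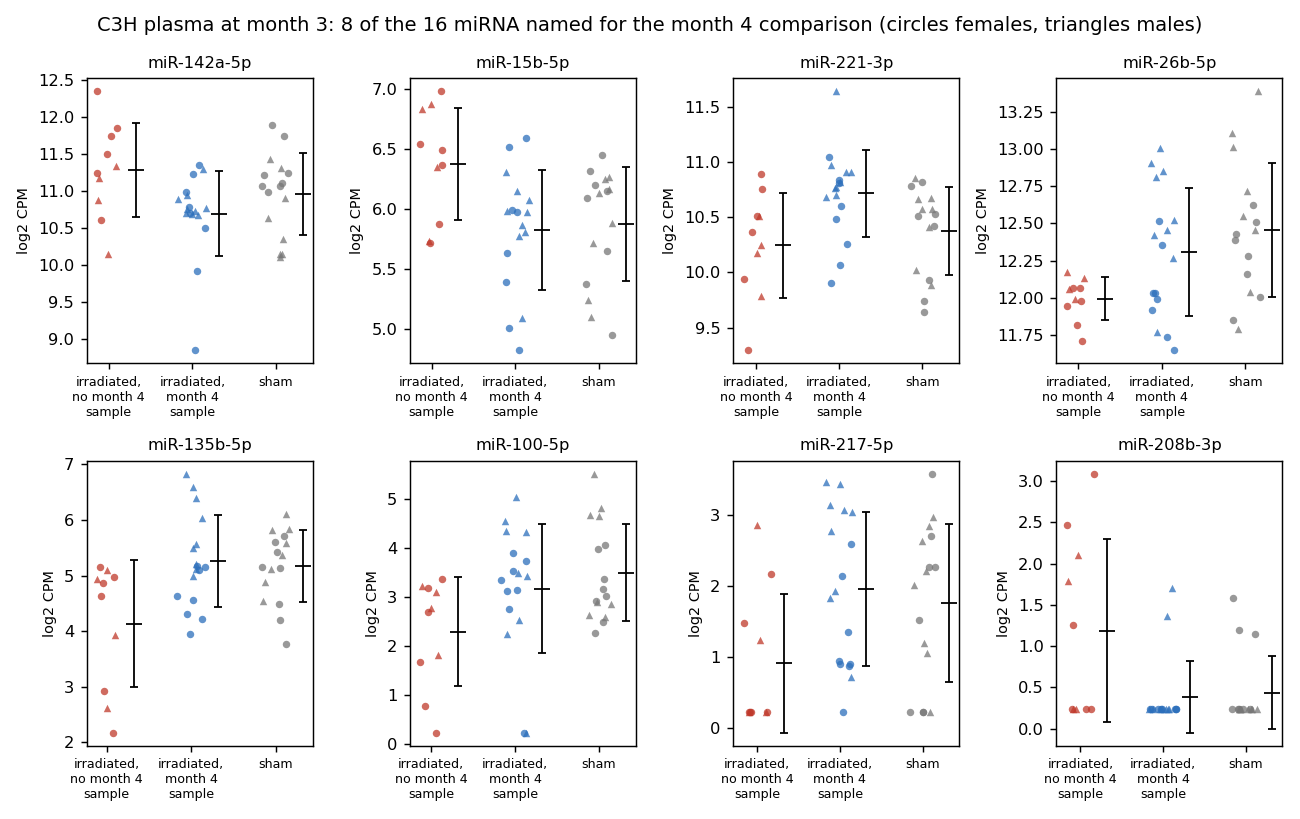
Log2 CPM at month 3 (vertical axis) in each C3H mouse for 8 miRNA with small unadjusted p, by group (10 irradiated without and 17 with a month 4 sample, 16 sham); black marks give mean and SD. All groups overlap; the 10 mice without a month 4 sample cluster between 11.71 and 12.17 for miR-26b-5p, and miR-208b-3p and miR-217-5p have many libraries at 0.23, the level of 0 reads.

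The earlier samples of the same mice show whether these differences were there before month 3. miR-142a-5p differed by 0.66 before irradiation (p = 0.0135), by 0.55 at month 1 (p = 0.0404) and by -0.02 at month 2 (p = 0.949), mice without a month 4 sample minus mice with one. Before irradiation it ran from 10.24 to 11.91 log2 CPM in these mice and from 9.33 to 11.24 in those with a month 4 sample. The month 3 difference in miR-142a-5p was thus as large in plasma taken before any exposure. In limma with the mouse as block, the change from the own sample before irradiation differed between the groups by -0.06 (p = 0.835). The change from the own month 2 sample differed by 0.66 in the same test (p = 0.0359, adjusted p = 0.958).

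miR-15b-5p differed by 0.45 before irradiation (p = 0.0887), by 0.51 at month 1 (p = 0.0484) and by 0.03 at month 2 (p = 0.923). miR-135b-5p differed by -1.12 before irradiation (p = 0.0121), by 0.05 at month 1 and by 0.59 at month 2. miR-100-5p differed by -0.87 before irradiation (p = 0.0755), -1.08 at month 1 (p = 0.022) and -0.01 at month 2 (p = 0.982). None of these passed the threshold over all miRNA at any of these times. miR-221-3p and miR-26b-5p differed by -0.34 (p = 0.0643) and 0.01 (p = 0.958) before irradiation and by 0.29 and -0.10 at month 2.

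**Figure D3:**
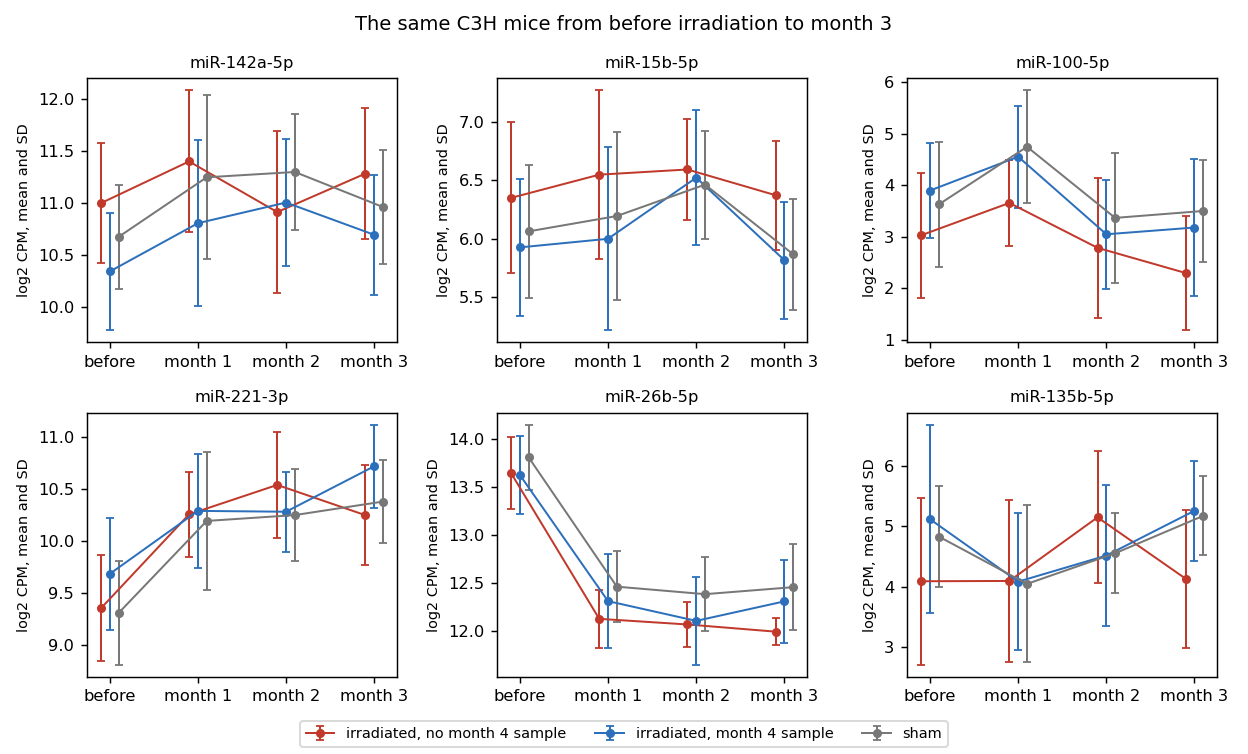
Mean log2 CPM with SD (vertical axis) before irradiation and at months 1 to 3 (horizontal axis) for 6 miRNA in the same mice, 10 irradiated without and 17 with a month 4 sample and 16 sham. The distance between the irradiated groups for miR-142a-5p and miR-135b-5p was as wide before irradiation as at month 3, and at month 2 it was near 0 or turned.

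The 11 abundant miRNA with an unadjusted p under 0.05 at month 3 were followed as a set; besides the 4 above they were miR-29b-3p, miR-185-5p, let-7f-5p, miR-26a-5p and miR-322-5p on the higher side and miR-184-3p and miR-155-5p on the lower side. Before irradiation 9 of the 11 had the month 3 direction, where 61% of all 164 abundant miRNA had it, and 6 of the 9 had an unadjusted p under 0.05, as did 26 of the 164 in either direction. At month 2 the direction was that of month 3 in 7 of 11, 0 at an unadjusted p under 0.05, against 51.8% of the 164. At month 1 it was so in 11 of 11 (4 at an unadjusted p under 0.05, beside 15 of the 164; 62.8% of the 164 in direction), at day 5 in 9 of 11 (0 unadjusted; 51.8%) and at day 2 in 2 of 11 (0 unadjusted; 47.6%). miR-29b-3p, of the collagen-repressing miR-29 family, differed by 0.68 ± 0.32 at month 3, by 0.91 before irradiation (p = 0.00483) and by -0.04 at month 2 (p = 0.899).

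Counted over all miRNA, the split by month 4 sample gave the most small p values before irradiation. In the sample taken before irradiation 2 of 483 miRNA (0.414%) passed the threshold and 63 (13%) had an unadjusted p under 0.05, compared with 27 at month 3. With no filter on low counts the order was the reverse, 0 before irradiation and 55 at month 3. At month 1 there were 0 (25 unadjusted, 5.18%) and at month 2 there was 1 (0.207%; 21 unadjusted, 4.35%). At day 2, with 4 and 10 mice, there were 0 (21 unadjusted, 4.35%), and at day 5, with 6 and 7 mice, 0 (13 unadjusted, 2.69%). Before irradiation and at month 2 alike, 0 passed in limma-voom, with the mouse as replicate block, with quantile-normalized log2 RPM, in DESeq2 and among abundant miRNA only, and at month 2 also with only the groups compared. All 3 miRNA that passed were scarce. miR-1668 was read before irradiation in 4 of 10 and 1 of 17 mice, with at most 14 reads, and miR-7093-3p in 6 of 10 and 2 of 17, with at most 11. miR-3064-5p was read at month 2 in 5 of 10 and 0 of 17 mice, with at most 8 reads, and at month 3 in 1 of 10 and 4 of 17.

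No within-mouse change passed the threshold for a difference between the groups. For the change from month 2 to month 3, with each mouse as its own block, 0 of 483 miRNA passed in limma (17 unadjusted), and for the change from before irradiation to month 3, 0 passed (20 unadjusted). miR-217-5p had a change from month 2 that differed by -2.42 (p = 0.00102), miR-135b-5p one of -1.72 (p = 0.00706) and miR-221-3p one of -0.76 (p = 0.00832). On the higher side, miR-208b-3p had one of 2.09 (p = 0.0109) and miR-142a-5p one of 0.66 (p = 0.0359).

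The miRNA that the study names in its survival analysis, which fitted each strain separately on early samples, were examined at month 3. For C3H mice the study names miR-34a-5p, miR-100-5p, miR-150-5p and miR-199b-5p. For these the survival analysis used the early samples of these same mice and is therefore not independent of them. The study ties miR-34b-3p, miR-96-5p, miR-122-5p, miR-199a-5p and miR-802-5p to its other strain. Of the 9 from both strains, none passed the threshold and 1, miR-100-5p, had an unadjusted p under 0.05. The background over all miRNA was 5.59%. The median difference of the 9 was 0.01, beside -0.01 over all 483. miR-34a-5p, a target of p53, differed by 0.01 ± 0.22 with a 95% interval from -0.42 to 0.44, and the lymphocyte miRNA miR-150-5p by 0.04 ± 0.19 with an interval from -0.33 to 0.42. miR-122-5p, the main miRNA of hepatocytes, differed by 0.05 ± 0.41 (interval -0.75 to 0.85) and miR-34b-3p by 0.07 ± 0.32 (interval -0.56 to 0.70). For miR-34a-5p, miR-150-5p, miR-122-5p and miR-34b-3p a difference of a doubling in either direction lies outside the interval. miR-802-5p, also of liver, differed by 0.68 ± 0.40 (p = 0.0888), miR-199b-5p, of fibroblasts, by -0.73 ± 0.44 (p = 0.0951), miR-199a-5p by -0.08 ± 0.33 and miR-96-5p, of sensory and other epithelia, by -0.18 ± 0.53.

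Lists of tissue and cell markers were read beside the comparison, and no member of any list passed the threshold for the month 4 comparison. The 9 leukocyte miRNA had a median difference of 0.04, 5 above and 4 below 0, with miR-142a-5p and miR-155-5p at an unadjusted p under 0.05. miR-146a-5p, the most abundant of them beside miR-150-5p and a brake on NF-kB signaling, differed by 0.07 ± 0.17 and the myeloid miR-223-3p by -0.04 ± 0.20. miR-155-5p, induced in activated leukocytes, differed by -0.46 ± 0.23 (p = 0.0452). Their summed share of reads was 2.14 to 3.36% without a month 4 sample, 1.54 to 3.75% with one and 1.15 to 4.36% in sham mice.

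The red blood cell list made up most of the reads in many libraries, and miR-16-5p was the bulk of it. Its mean over all samples was 18.79 log2 CPM, beside 14.67 for miR-486a-5p, 12.56 for miR-451a and 8.20 for miR-144-3p. Because miR-16-5p is not particular to red cells, the summed share of the list is not a measure of red cell content. That share ran from 45.2 to 60.5% (median 52.1%) without a month 4 sample, from 36.2 to 74.5% (median 53.2%) with one and from 35.6 to 60.6% (median 50.8%) in sham mice. miR-16-5p, which is abundant in erythrocytes and many other cells, differed by -0.17 ± 0.19 and the erythroid miR-451a by -0.29 ± 0.29. The 2 arms of the erythroid miR-144 differed by 0.47 ± 0.29 (3p) and 0.39 ± 0.31 (5p) and were the only members above 0. The other 5 of the 7 were below 0, and the median was -0.29. miR-92a-3p had the smallest p with -0.32 ± 0.18 (p = 0.0686), and miR-486a-5p and miR-486b-5p differed by -0.34 ± 0.21 and -0.33 ± 0.21. None of the 7 had an unadjusted p under 0.05. The part of red cell content in the other values was not tested.

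Among liver miRNA, 5 of 6 were in the table and tested, with a median difference of 0.25 and a summed share of 0.793 to 3.72% without and 0.576 to 2.04% with a month 4 sample. The most abundant, miR-192-5p, differed by 0.25 ± 0.22 (p = 0.258). The 4 pancreatic miRNA had a median of -0.76, beside -0.01 over all 483. The scarce acinar miR-216b-5p and miR-217-5p had unadjusted p values under 0.05, as did 5.59% of all miRNA. The third acinar miRNA, miR-216a-5p, differed by 0.13 ± 0.42 and the endocrine miR-375-3p by 0.01 ± 0.21. The summed share of the 4 was 0.08307 to 0.1346% (median 0.1086%) without and 0.04975 to 0.1761% (median 0.09772%) with a month 4 sample. Muscle miRNA varied the most between mice, with summed shares of 0.042 to 3.85% and 0.0453 to 4.29%. The 7 muscle and heart miRNA had a median difference of 0.18, 5 above and 2 below 0. miR-206-3p, of skeletal muscle, differed by -0.34 ± 0.58, miR-1a-3p, of heart and skeletal muscle, by 0.08 ± 0.57, and the cardiac miR-499-5p by 0.73 ± 0.44 (p = 0.0931). The scarce miR-208b-3p (2.71 ± 0.90) was the only member at an unadjusted p under 0.05, and the also scarce miR-208a-3p differed by 0.73 ± 0.81.

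The 9 fibrosis and stroma miRNA had a median of -0.06, 3 above and 6 below 0. miR-29b-3p had the smallest p in edgeR's test with 0.68 ± 0.32 (p = 0.0369). It was the only member at an unadjusted p under 0.05, beside 5.59% of all miRNA. miR-21a-5p, the most abundant and a known companion of fibrosis, stood at 14.94 to 15.55 log2 CPM without and 14.58 to 16.03 with a month 4 sample and differed by -0.06 ± 0.13, with a 95% interval from -0.31 to 0.20. The 7 epithelial miRNA had a median of -0.15, with 5 of 7 below 0 and none at an unadjusted p under 0.05. The most abundant of them, miR-200a-3p, differed by -0.15 ± 0.21, and miR-205-5p, of stratified and basal epithelium, had the smallest p with -0.47 ± 0.25 (p = 0.0584). The endothelial miR-126a-3p and miR-126a-5p differed by -0.07 ± 0.18 and 0.15 ± 0.14.

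Both irradiated groups differed from sham mice in a small number of miRNA. Against the same 16 sham mice, 7 of 483 miRNA (1.45%) passed in the mice without a month 4 sample, 3 higher (0.621%) and 4 lower (0.828%), and 9 (1.86%) passed in the mice with one, 5 higher (1.04%) and 4 lower (0.828%). Because the sham mice are shared, the lists are given side by side, and the month 4 comparison itself is the test of whether the effects differed: none of these miRNA passed it.

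miR-34c-3p, which p53 induces and which ciliated airway cells express, was higher in both groups. It ran from 4.20 to 6.75 log2 CPM (median 5.31) without a month 4 sample, from 4.20 to 6.38 (median 5.25) with one and from 3.11 to 5.30 (median 4.16) in sham mice, and all 27 irradiated mice were above the sham median. The log2 differences from sham were 1.28 ± 0.30 (adjusted p = 0.00641) and 0.97 ± 0.27 (adjusted p = 0.0282), and the irradiated groups differed by 0.31 ± 0.30. The other 5 members of the family did not pass: miR-34b-3p, which has the same seed, stood 0.70 ± 0.32 and 0.63 ± 0.28 above sham (adjusted p = 0.274 and 0.305), and miR-34a-5p 0.23 ± 0.22 and 0.22 ± 0.19. The opposite arm, miR-34c-5p, differed from sham by 0.09 ± 0.30 and 0.49 ± 0.26. The last members were lower than sham, miR-34b-5p by -1.47 ± 0.82 and -0.18 ± 0.66 and miR-449a-5p by -0.30 ± 0.58 and -0.07 ± 0.50.

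miR-24-3p, an abundant and broadly expressed miRNA, ran from 12.72 to 13.45 log2 CPM without and from 12.45 to 13.51 with a month 4 sample, and from 12.08 to 12.99 in sham mice. It was higher than sham by 0.44 ± 0.12 (adjusted p = 0.0291) and 0.45 ± 0.11 (adjusted p = 0.00521), and the irradiated groups differed by -0.01 ± 0.12. miR-146b-5p, an NF-kB induced miRNA, was lower in both, at 4.49 to 6.78 and 5.22 to 7.54 log2 CPM against 6.04 to 7.96 in sham mice. Its differences were -0.98 ± 0.26 (adjusted p = 0.0184) and -0.76 ± 0.22 (adjusted p = 0.0362). Over the alternatives that could test it, miR-24-3p passed in 7 of 11 without and 9 of 11 with a month 4 sample. miR-146b-5p passed in 10 of 11 in both groups.

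The 2 arms of miR-202, which is known from the gonads, were lower in both irradiated groups, and the sham reads lay mostly in the females. miR-202-5p ran from 3.91 to 6.29 log2 CPM in the 8 sham females, none of which lacked reads, while 6 of 6 irradiated females without a month 4 sample and 6 of 8 with one had 0 reads. In males 6 of 8 sham libraries, 3 of 4 and 5 of 9 had 0 reads. Without a month 4 sample 1 of 10 mice had reads of miR-202-5p, 5 at most, and with one 6 of 17 did, 6 at most. The fitted differences from sham were -5.97 ± 1.26 (adjusted p = 0.00134) and -4.65 ± 0.91 (adjusted p = 0.000199) for miR-202-5p, and -4.02 ± 1.03 (adjusted p = 0.012) and -3.55 ± 0.82 (adjusted p = 0.00419) for miR-202-3p. In limma-voom neither of the values for miR-202-5p passed (adjusted p = 0.124 and 0.218). Over the alternatives that could test it, miR-202-5p passed in 7 of 10 in both groups. miR-202-3p passed in 8 of 10 without and 7 of 10 with a month 4 sample.

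miR-125a-5p and miR-5107-3p passed in the mice without a month 4 sample. miR-125a-5p, of the miR-125 family that acts in blood cell formation, ran from 8.59 to 9.52 log2 CPM in them, from 8.39 to 10.07 in mice with a month 4 sample and from 9.01 to 10.42 in sham mice. It differed from sham by -0.67 ± 0.19 (adjusted p = 0.0402) and by -0.48 ± 0.16 (adjusted p = 0.141) in the same order, and the irradiated groups differed by -0.18 ± 0.19. miR-5107-3p, with 13 reads at most, was read in 7 of 10 and 5 of 17 irradiated and 2 of 16 sham mice, and differed from sham by 3.46 ± 0.88 (adjusted p = 0.012) and 1.70 ± 0.80 (adjusted p = 0.305). In mice without a month 4 sample miR-125a-5p passed in 9 of 11 alternatives and miR-5107-3p in 8 of the 9 that could test it.

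miR-1247-5p, miR-184-3p, miR-423-5p and miR-219a-2-3p passed in the mice with a month 4 sample. None of the 4 passed in limma-voom or with only the groups compared. Over all alternatives that could test them, miR-1247-5p passed in 6 of 10, miR-184-3p in 6 of 11, miR-423-5p in 8 of 11 and miR-219a-2-3p in 5 of 9. miR-184-3p, known from cornea and other epithelia, ran from 11.17 to 16.25 log2 CPM (median 14.07) in these mice, from 11.43 to 15.52 (median 12.82) in those without and from 11.86 to 14.96 (median 13.28) in sham mice. Its differences from sham were 1.01 ± 0.30 with (adjusted p = 0.0368) and 0.32 ± 0.34 without a month 4 sample (adjusted p = 0.711), and the irradiated groups differed by -0.69 ± 0.34 (p = 0.0439, adjusted p = 0.704), beside -0.76 before irradiation (p = 0.027). miR-423-5p, a miRNA often measured in heart disease, was 0.45 ± 0.13 above sham (adjusted p = 0.0312) and 0.21 ± 0.15 in mice without a month 4 sample. For miR-219a-2-3p, at -3.16 ± 0.83 from sham (adjusted p = 0.0149), the sham value rested on few libraries, with 84 reads in the highest and 0 in 10 of 16.

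miR-1247-5p, encoded in an exon of Dio3os, was 1.41 ± 0.34 above sham in mice with a month 4 sample (adjusted p = 0.00553) and 0.82 ± 0.39 in those without (adjusted p = 0.278). The 8 females with a month 4 sample ran from 4.60 to 7.11 log2 CPM and the 9 males from 2.45 to 4.71, whereas females and males without one ran from 2.81 to 5.51 and from 3.56 to 4.98. Sham females ran from 3.02 to 5.14 (mean 3.88) and sham males from 2.13 to 3.85 (mean 3.08). The means with a month 4 sample were 5.49 in females and 3.34 in males. A difference from sham within each sex was not tested. The difference between the irradiated groups was -1.46 in females and 1.13 in males, and the test of sex by month 4 sample gave -2.64 ± 0.63 (adjusted p = 0.0362 in edgeR's quasi-likelihood test). miR-31-5p, an epithelial miRNA, was the only other of 483 to pass that test, with 0.88 in females and -0.67 in males and 1.48 ± 0.36 for the sexes' difference (adjusted p = 0.0362). Its 4 groups of irradiated mice ran from 6.79 to 8.04 and 6.02 to 7.06 in females without and with a month 4 sample and from 6.26 to 6.69 and 6.53 to 8.02 in males.

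**Figure D4:**
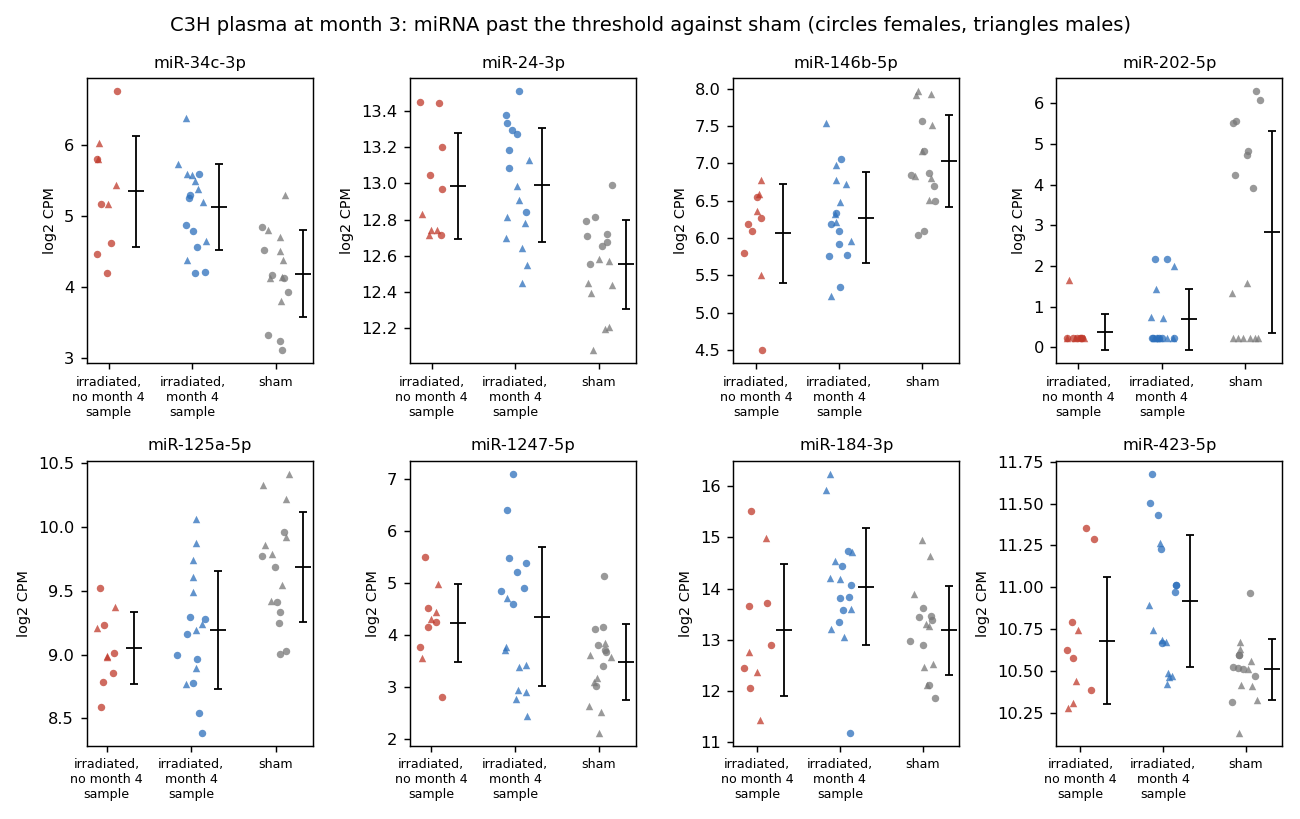
Log2 CPM at month 3 (vertical axis) in each C3H mouse for 8 miRNA past the threshold against sham in at least 1 irradiated group; circles are females, triangles males, black marks mean and SD. For miR-34c-3p all 27 irradiated mice lie above the sham median of 4.16, and for miR-202-5p the sham females lie between 3.91 and 6.29 and all other mice at or below 2.16.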

How the data were processed

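Plasma small RNA was sequenced by the authors from libraries of a QIAseq kit. Reads were trimmed and aligned to mouse mm10 miRNA in BaseSpace, and the deposited table holds raw read counts for 1915 miRNA in 899 samples, whole numbers that were not normalized. A molecule amplified more than once is counted more than once, and a count of 0 does not show that a miRNA was absent. The SE and 95% intervals of the edgeR fits rest on a spread shared by all groups, both strains and all times. These fits treated samples of the same mouse as independent. The authors' own tests used limma on quantile-normalized values.

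Counts were scaled by TMM and tested with edgeR 4.0.16 (R 4.3.3), by quasi-likelihood F tests on 59 group means over all samples (840 residual degrees of freedom), with Benjamini-Hochberg adjustment within each comparison. The filter on low counts (filterByExpr by strain, treatment and time, smallest group 8) kept 483 miRNA with 99.99% of the reads. The plan did not fix how samples were grouped for this filter. Grouping by all 59 groups, some of 1 sample, was tried first and kept 783 miRNA, and it was set aside after its calls were seen; it is given as an alternative. Log2 CPM used a prior count of 2. Library totals over the whole series ran from 206490 to 11814515 and TMM factors from 0.372 to 1.59. No libraries held identical values.

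Samples were grouped by the labels' mouse number, treatment and time. Each mouse is 1 replicate at a time point. Changes within mice were tested in limma 3.58.1 with the mouse as a fixed block, since mouse numbers pair the samples. Deviations from group means of the same mouse correlated at 0.0378 (months 2 and 3) and 0.0462 (before irradiation and month 3) over 164 miRNA. Between different mice the values were 0.0008 and -8.9e-05. The earlier sample matched the month 3 sample of its own mouse best in 2 of 27 mice from month 2 and 1 of 27 from before irradiation. Named miRNA were those past the threshold at month 3, the 8 with the smallest p in each direction, marker list members and the study's survival miRNA; those from other times, the other abundant miRNA with small p and miR-31-5p were added after their values were seen. The members and lists were chosen with earlier results of these data known. The code was tested on simulated data. Sequences are from RefSeq, GRCm38.p6, and gene annotation is from GENCODE M21. DESeq2 1.42.0 was an alternative.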

Additional observations from a re-analysis of the deposited data

Results flagged for a closer look

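miR-1247-5p and miR-31-5p stood out because the difference between irradiated mice without and with a month 4 sample was not the same in the sexes: the female minus male value was -2.64 for miR-1247-5p and 1.48 for miR-31-5p, 2 of 483 miRNA in edgeR's quasi-likelihood test, an interaction added after the data were seen (36 had an unadjusted p under 0.05). Within 1 sex neither passed (adjusted p = 0.269 in females and 0.67 in males for miR-1247-5p, and 0.24 and 0.755 for miR-31-5p).

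Among the 10 mice without a month 4 sample, 1 lay apart from the others at 14.69 log2 CPM of miR-122-5p, against a median of 12.26, and 1 at 0.23 log2 CPM of miR-96-5p, with 0 reads, against a median of 3.42. The gap to the next mouse was 0.522 and 0.497 of the group's range, which is beyond Dixon's limit for 10 samples. Of 29 groups of values tested 2 held such a sample, and chance alone marks about 1 group in 20.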

How the results depend on the processing

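The count of 0 miRNA for the month 4 comparison at month 3 held in limma-voom, with the mouse as replicate block, with quantile-normalized log2 RPM, with DESeq2 and its size factors, among abundant miRNA only, with only the groups compared, with sex or bleed arm as covariate and within each sex and arm. It was 55 with no filter on low counts and 36 with the filter by all 59 groups. The comparison with sham passed 61 and 59 miRNA in these settings without a month 4 sample and 37 and 27 with one, month 2 passed 6 and 8, month 1 passed 5 and 7, and the sample before irradiation 0 and 8. Leaving out each mouse in turn gave 0 to 1.

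Other counts that moved by over 1.5 times were as follows. Mice without a month 4 sample against sham passed 1 with quantile-normalized log2 RPM and 3 among abundant miRNA. Mice with one passed 4 in limma-voom, 4 with the replicate block, 3 with quantile-normalized log2 RPM, 4 among abundant miRNA and 5 with only the groups compared. Month 2 passed 0 in limma-voom, with the block, with quantile-normalized log2 RPM, in DESeq2, among abundant miRNA and with only the groups compared. The sample before irradiation passed 0 in limma-voom, with the block, with quantile-normalized log2 RPM, in DESeq2 and among abundant miRNA, 1 with DESeq2 size factors and with bleed arm as covariate, and 7 with only the groups compared. The change from month 2 to month 3 passed 2 with no replicate block. The causes were not tested.

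Some log2 differences changed sign, most of them near 0, and none passed the threshold in either setting. miR-142a-5p was -0.059 as the change from before irradiation with the mouse as replicate block, and miR-26b-5p was 0.048 in arm B. miR-34a-5p was -0.061 with no filter, -0.0039 among abundant miRNA, -0.020 with only the groups compared, -0.036 in females, -0.12 in arm A and -0.032 as the change from before irradiation. miR-34b-3p was -0.13 in males and -0.29 in arm A, and miR-96-5p was 0.59 in females, 0.36 in arm A and 1.01 as the change from before irradiation. miR-122-5p was -0.10 in limma-voom and with the replicate block, -0.074 with quantile-normalized log2 RPM and with no filter, -0.047 with only the groups compared, -0.135 in females, -0.023 in arm A, -0.061 in arm B and -0.022 as the change from before irradiation. miR-150-5p was -0.0003 with quantile-normalized log2 RPM, -0.027 with no filter, -0.0028 with only the groups compared, -0.0027 in females, -0.10 in arm A and -0.20 as the change from before irradiation. miR-199a-5p was 0.38 in males and 0.75 in arm B, miR-199b-5p was 0.56 in arm B, and miR-184-3p against sham was -0.016 in limma-voom and -0.017 with the block. Leaving out each mouse in turn, miR-34a-5p ran from -0.056 to 0.20, miR-34b-3p from -0.057 to 0.19, miR-96-5p from -0.40 to 0.12, miR-122-5p from -0.53 to 0.24, miR-150-5p from -0.017 to 0.11 and miR-199a-5p from -0.27 to 0.044.

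Of the 16 calls against sham, miR-34c-3p passed in both groups in every alternative that tested it. The other calls did not all hold: 38 values of these miRNA fell short of it under an alternative with the direction kept. The difference in log10 totals was 0.0465 over kept miRNA without the most abundant one (p = 0.357). Intervals of scarce miRNA were wide in the month 4 comparison, and the 5 irradiated mice with no month 3 sample enter neither group.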
